A study of Zea mays with 6 samples.

Results

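The regions described here are ear peaks of KNOTTED1 (KN1) with many tags, for which neither tassel list has a counterpart. They were selected on 2 measured values of the deposited peak lists: at least 15 chromatin immunoprecipitation (ChIP) tags in the ear peak, and no base shared with a peak of either tassel list. On the numbered chromosomes 1 to 10 this gave 1571 regions of 24667 ear peaks, and of 3495 ear peaks with 15 or more tags, which are called tag-rich below. The other 1924 tag-rich ear peaks share at least 1 bp with a tassel peak. A further 19215 ear peaks of 4 to 14 tags were also called in the ear alone, and 1957 ear peaks of 4 to 14 tags lie on a tassel peak. Because tags and overlap chose the regions, both are given as a description, and no test was made on them.

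KN1 is a transcription factor of the KNOX homeodomain family. KNOX genes are active in meristems, the stem cell tissue of the shoot, and are switched off where lateral organs begin. Loss of KN1 in maize reduces the inflorescences, which then carry fewer branches and spikelets, and KN1 acts with partner proteins of the BELL family when it binds DNA. Both maize inflorescences, the ear (female) and the tassel (male), begin as primordia rich in meristems.

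The series holds ear primordia (1 anti-KN1 ChIP sample and its total input DNA) and tassel primordia (2 anti-KN1 ChIP samples, each with total input DNA), all from field-grown plants of the inbred line B73. The second tassel sample, titled for tassels 2 and 3, is called tassel replicate 2. Ear chromatin was sheared to about 100 bp on average and its libraries went through a gel selection of 150 to 350 bp fragments once amplified. Tassel chromatin was sheared to about 400 bp and its libraries had barcoded adapters and no gel step, so tissue and library preparation cannot be told apart. The titles give the 2 tassel samples different tassel numbers, but the labels do not state if these came from different plants. The inputs were not analysed here. With 1 ear list no difference between the tissues can be tested across samples, and peaks of 1 list are not replicates. The lists held 24737 ear peaks with 226165 tags, against 8876 peaks with 87317 tags in tassel replicate 1 and 14918 peaks with 165023 tags in tassel replicate 2. Library depth is not given by the lists, so it is unknown. Genes at the regions were not analysed, since no source used here names the build of the coordinates.

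The share of ear peaks called in the ear alone was lower the more tags the peaks held. Of all ear peaks on the numbered chromosomes 84.3% had no tassel counterpart, and of the tag-rich ones 44.9%. The rule used both values, so nothing is read from their difference. In bands of rising tags the share without a counterpart was 97% at 4 tags, 95.2% at 5 tags, 86.4% at 6 to 9 tags and 72.4% at 10 to 14 tags. It was 58.4% at 15 to 19 tags (95% Wilson interval 55.7 to 61.1), 48.0% at 20 to 29 tags (45.2 to 50.9), 31.9% at 30 to 49 tags (28.7 to 35.2) and 12.2% at 50 or more tags (9.03 to 16.3). The limit of 15 tags therefore falls within a steady decline and not at a step. Nearly all counterparts came from tassel replicate 2. Of the 1924 tag-rich ear peaks with a counterpart, 1586 lie on a peak of tassel replicate 2 alone, 107 on a peak of tassel replicate 1 alone and 231 on peaks of both. Without tassel replicate 2 the regions would number 3157, and without tassel replicate 1 they would number 1678.

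**Figure D1:**
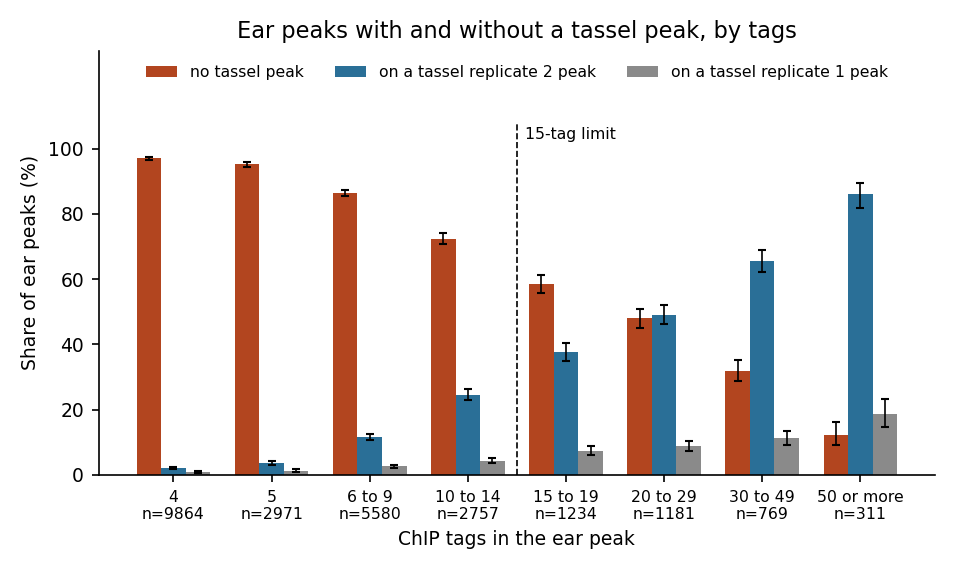
Share of ear peaks (%) with no tassel peak, on a peak of tassel replicate 2 and on a peak of tassel replicate 1, in bands of ChIP tags of the ear peak; n is the number of ear peaks in the band and error bars are 95% Wilson intervals (counting error over peaks). The share with no tassel peak is 97% at 4 tags and 12.2% at 50 or more tags, and the dashed line marks the limit of 15 tags.

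Tassel peaks under tag-rich ear peaks held more tags at the median than their lists as a whole, in each band of ear tags. Where ear peaks of 15 to 19 tags lie on a peak of tassel replicate 2, that tassel peak held a median of 11 tags (quartiles 7 to 17), and 38.1% of the 464 cases had the list's smallest width of 500 bp, against 80.2% of the whole list. Where ear peaks of 50 or more tags lie on such a peak, the tassel peak held a median of 22 tags (quartiles 13.8 to 38.3), and 6.34% of 268 had the smallest width. The whole list of tassel replicate 2 had a median of 9 tags and a lowest value of 4. In tassel replicate 1 the median tassel peak held 9 tags under ear peaks of 15 to 19 tags and 10 under ear peaks of 50 or more, against 5 in its whole list. How many of the 1571 regions had tassel tags below the limit at which a peak was called is not given by the lists and was not tested.

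The regions held 15 to 87 tags, with a median of 20 (quartiles 17 to 26), against a median of 26 tags (19 to 38) in tag-rich ear peaks with a counterpart. Together they hold 36703 tags, 16.3% of the tags in ear peaks on these chromosomes, and cover 1148 kb. Of the 1571 regions, 721 (45.9%) had fewer than 20 tags, 283 had 30 or more and 38 had 50 or more, where 273 tag-rich peaks with a counterpart had 50 or more. Their width ran from 249 to 2491 bp with a median of 697 bp (95% interval of the median 680 to 710), against 740 bp (726 to 755) with a counterpart. The authors' fold enrichment over local background had a median of 36.1 (35.2 to 37.0) in the regions and of 41.5 (40.5 to 43.3) with a counterpart. The authors' score, -10 × log10 of the p-value of the peak caller MACS, had a median of 180 (175 to 185) in the regions and of 233 (225 to 240) with a counterpart. On each of the 10 chromosomes the median tags and the median width were lower in the regions than in tag-rich peaks with a counterpart, and the median fold was lower on 9 of 10, chromosome 6 being the exception (37.3 against 36.0). By score, 5 regions stood among the 100 best ear peaks, 91 among the 500 best and 268 among the 1000 best.

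At like tags the regions and the tag-rich ear peaks with a counterpart were close to each other in width and, below 50 tags, in fold and score. At 15 to 19 tags the median width was 620 bp (596 to 643) in the 721 regions and 618 bp (584 to 636) in the 513 peaks with a counterpart, and the median fold was 29.97 (28.9 to 31.7) in the regions and 30.3 (28.9 to 31.3) with a counterpart. At 20 to 29 tags the regions had a width of 708 bp (680 to 734) and a fold of 38.5 (36.0 to 40.1), and peaks with a counterpart 707 bp (681 to 730) and 36.6 (35.1 to 38.5). At 30 to 49 tags the regions had 819 bp (778 to 863) and 51.4-fold (48.2 to 56.8), and peaks with a counterpart 818 bp (778 to 852) and 51.5-fold (48.7 to 54.4). In these 3 bands the intervals of width and fold overlapped. At 50 or more tags the regions had a width of 1081 bp (948 to 1303) and a fold of 59.6 (49.8 to 72.2), and peaks with a counterpart 1054 bp (996 to 1119) and 69.4 (65.5 to 73.9). The fold was there lower in the regions, as over all tags, with overlapping intervals. In the same band the median score was 556 (471 to 603) in the 38 regions and 654 (612 to 696) in the 273 peaks with a counterpart. Within that open band the regions also held fewer tags, with a median of 56.5 (52 to 61) against 66 (64 to 70). Over 20 such comparisons (width, fold, score, place near the chromosome ends and a neighbouring ear peak within 5 kb, in 4 bands) this score was the 1 case in which the 95% intervals lay apart. Overlapping intervals do not show that the values are equal, and tags, fold, score and width all come from the ear ChIP that chose the regions.

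**Figure D2:**
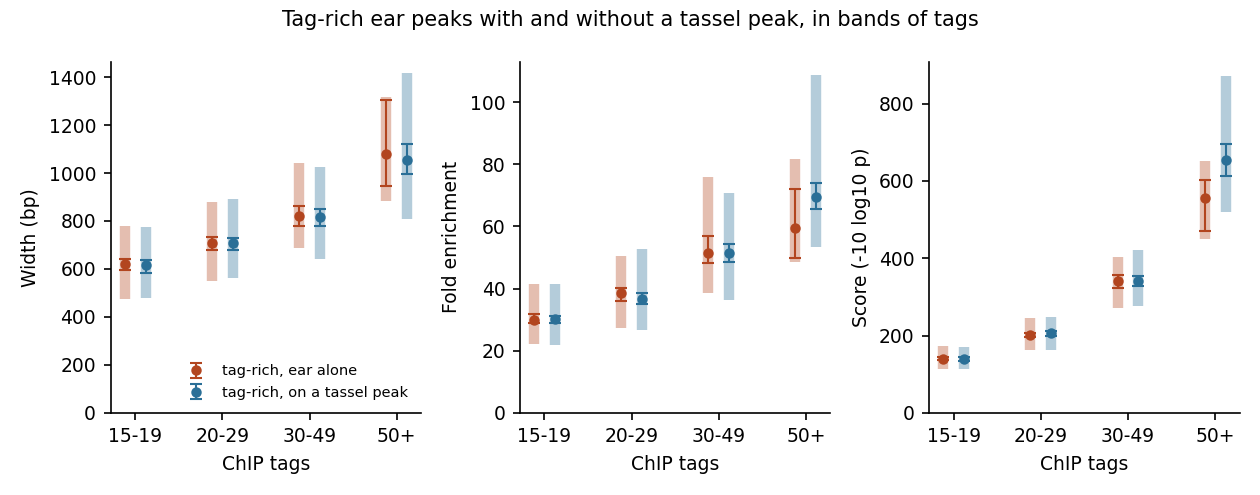
Width (bp), fold enrichment and score of tag-rich ear peaks, without a tassel peak (left of each pair) and on a tassel peak (right), in bands of ChIP tags; points are medians, thin bars the 95% intervals of the median and broad bars the quartiles. The pairs have overlapping intervals in each band for width and fold, and apart ones for the score at 50 or more tags, with medians of 556 and 654.

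The false discovery rate (FDR) that the authors deposited for each peak limits what the regions can show. It is read as MACS's empirical rate from exchanging ChIP and input, so that at 100% the exchanged call would give no fewer peaks at that score than the ChIP. An FDR of 100% was carried by 1320 of the 1571 regions (84.0%, interval 82.1 to 85.8), against 63.9% (61.7 to 66.0) of tag-rich peaks with a counterpart 99.98% of ear-alone peaks of 4 to 14 tags and 96.2% of all ear peaks. Whether the ear ChIP and its input were used in their labelled roles when the peaks were called cannot be checked without the input, and the meaning of the ear FDR, fold and score rests on it. The share was higher in the regions on 10 of 10 chromosomes. Within bands of tags it was near the same. It was 98.8% (97.6 to 99.3) in the regions and 99.03% (97.7 to 99.6) with a counterpart at 15 to 19 tags, and 33.5% (27.9 to 39.6) in the regions and 31.9% (28.0 to 36.0) with a counterpart at 30 to 49 tags. An FDR of 20% or less was reached by 9 of the 1571 regions (0.573%), where 0.568% of all ear peaks reached it, and by 131 of the 1924 tag-rich peaks with a counterpart (6.81%). The share of the regions is thus near that of the ear list at large and below that of tag-rich peaks with a counterpart. No ear peak of 4 to 14 tags reached that FDR.

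These 9 regions are the best separated from input by that column. The region on chromosome 8 (160988069 to 160988651) had the lowest FDR of the regions, 7.04%, with 51 tags, a score of 867 and a 312-fold enrichment, and ranked 71st in the ear list. A peak of tassel replicate 2 with 6 tags and the smallest width lies 258 bp from it. The region on chromosome 6 (95069443 to 95069867) had an FDR of 8.0%, 59 tags in 425 bp and a 130-fold enrichment. Its 139 tags per kb were the highest density of the regions, and the nearest tassel peaks lie 211 kb (replicate 1) and 304 kb (replicate 2) away, the farthest of the 9. On chromosome 7 a region (129366470 to 129367348) had 73 tags at an FDR of 9.3%. A second region on chromosome 6 (97320717 to 97321514) had 68 tags at 9.57% and a peak of tassel replicate 1 at 6.68 kb. On chromosome 3 a region (214835891 to 214836891) had 75 tags at 11.1%, with a peak of tassel replicate 2 of 12 tags at 1.32 kb. Distances thus differ widely even among these 5. They also have the 5 best scores of the regions, but the FDR as read above depends on the score, so the 2 are not separate evidence. The other 4 lay on chromosome 2 (80423041 to 80424968, 13.8%), chromosome 3 (53049104 to 53049825, 15.7%), chromosome 7 (141140094 to 141141492, 15.9%) and chromosome 4 (83187890 to 83189041, 16.8%). Of the 9, 2 had a tassel peak within 5 kb and 6 another ear peak within 5 kb.

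Each of the 10 regions richest in tags was wider than the median region, 697 bp. The region with most tags, 87, lies on chromosome 1 (23230786 to 23233016), is 2231 bp wide and has its summit 1472 bp from the start, with an enrichment of 48.6-fold and an FDR of 24.9%. It stood 58th by tags in the ear list, and the 57 ear peaks with more tags all lie on a tassel peak. It was followed by the region on chromosome 2 (80423041 to 80424968) with 81 tags in 1928 bp and an 82.2-fold enrichment. Others of the 10 richest in tags lie on chromosome 5 (165157567 to 165158954) with 72 tags and a 53.4-fold enrichment, on chromosome 4 (177060363 to 177061338) with 70 tags and 60.8-fold, and on chromosome 1 (95229143 to 95230367) with 66 tags and 64.7-fold. The region of 70 tags has a peak of tassel replicate 2, 1402 bp wide with 15 tags, at a distance of 492 bp. The 10 richest thus include regions next to a tassel peak as well as the region of 66 tags on chromosome 1, whose nearest tassel peak is 35.6 kb away.

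Of the 5 highest enrichments, 4 belonged to regions with 15 to 25 tags, and the second highest, 312-fold, to the region of 51 tags on chromosome 8 given above. The highest, 357-fold, was on chromosome 6 (30664410 to 30664797) with 25 tags in 388 bp at an FDR of 43.4%. Regions on chromosome 5 (196956289 to 196956743) and chromosome 1 (263167337 to 263167844) both had 17 tags and the same 287-fold enrichment, at an FDR of 88.4% and 94.3%. On chromosome 2 a region (216376329 to 216376577) reached 269-fold with 15 tags in 249 bp, the narrowest of the regions. Across the 1571 regions, Spearman's rho was 0.75 between tags and score, 0.39 between tags and fold, 0.32 between tags and width and -0.29 between width and fold. These values are a description over peaks of 1 library that share its depth, and no p is given.

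At the limit of 15 tags the regions differed little in width and fold from ear-alone peaks just below it. The 160 regions with exactly 15 tags had a median width of 631 bp and a median fold of 27.7, and the 232 ear-alone peaks with 14 tags had 610 bp and 26.1. The nearest tassel peak was a median of 8104 bp away (6275 to 14048) at 15 tags and 13195 bp (9527 to 19661) at 14 tags, with overlapping intervals. A tassel peak lies within 100 bp of 27 regions, and 23 tag-rich ear peaks left out by the rule share 100 bp or less with a tassel peak. The nearest were a region on chromosome 9 (133583314 to 133584057), 4 bp from a peak of tassel replicate 2 with 27 tags, and a region on chromosome 5 (62201653 to 62202607), 10 bp from a peak of tassel replicate 2 and 646 bp from a peak of tassel replicate 1. The others of the 5 nearest lie on chromosome 3 (156634491 to 156635255, 22 bp), chromosome 2 (31491392 to 31491997, 26 bp) and chromosome 3 (165413703 to 165414431, 30 bp). The last of these has both tassel lists close by, with a peak of tassel replicate 1 at 48 bp. Those 5 held 15 to 19 tags at an FDR of 100%.

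Away from these limits, the regions lay closer to tassel peaks than weaker ear-alone peaks did. The nearest peak of either tassel list was a median of 9189 bp away (interval 7561 to 10915), against 22467 bp (21792 to 23232) for ear-alone peaks of 4 to 14 tags. The median was smaller in the regions on 10 of 10 chromosomes. Within 5 kb, 39.7% of the regions (37.3 to 42.1) had a tassel peak, against 23.9% (23.3 to 24.5) of the weaker ear-alone peaks. For tassel replicate 2 these shares were 32.7% (30.4 to 35.1) and 17.6% (17.1 to 18.2), and for tassel replicate 1 12.2% (10.7 to 13.9) and 8.63% (8.24 to 9.03). The order was the same in both parts of the chromosomes, with 43.6% against 29.3% in the outer 40% and 33.6% against 18.95% in the inner 60%. Among ear-alone peaks alone the share within 5 kb was 17.6% at 4 tags, 25.4% at 5, 30.002% at 6 to 9, 37.2% at 10 to 14, 37.3% at 15 to 19, 41.4% at 20 to 29, 43.3% at 30 to 49 and 34.2% (21.2 to 50.1) at 50 or more. It was already at the level of the regions at 10 to 14 tags.

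**Figure D3:**
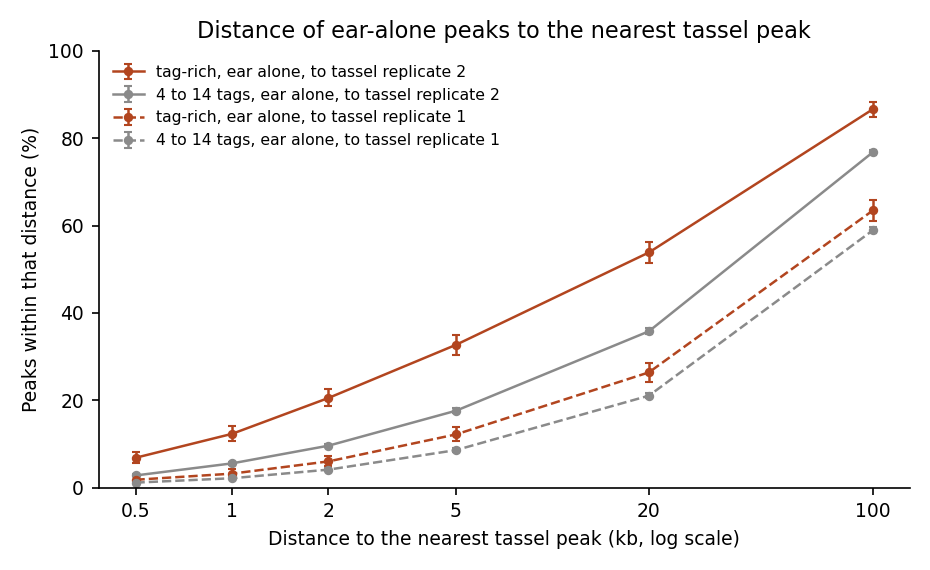
Share of ear-alone peaks (%) with a tassel peak within 0.5, 1, 2, 5, 20 and 100 kb (log axis), for tag-rich regions and for peaks of 4 to 14 tags, to tassel replicate 2 (solid) and tassel replicate 1 (dashed); error bars are 95% Wilson intervals. At 5 kb the tag-rich regions reach 32.7% for tassel replicate 2 and the peaks of 4 to 14 tags 17.6%.

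At the other extreme, 102 regions (6.49%) had no tassel peak within 100 kb, against 11.5% of the weaker ear-alone peaks. The most remote lies on chromosome 4 (105855760 to 105856507), with 31 tags, an 80.7-fold enrichment and tassel peaks no closer than 527 kb. It was followed by regions on chromosome 9 (63125451 to 63126087, 454 kb), chromosome 8 (3883118 to 3883778, 341 kb), chromosome 1 (98423737 to 98424274, 326 kb) and chromosome 3 (48506283 to 48506600, 297 kb). Those on chromosomes 9, 1 and 3 held 15 to 17 tags at an FDR of 100%. The region on chromosome 8 held 28 tags at an FDR of 88.1% and lies 2.21% of the chromosome's length from its end, while the other 4 lie at 20.9% to 43.8%.

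The regions often stood beside other ear peaks. Another ear peak lay within 5 kb of 785 regions (49.97%, 47.5 to 52.4), against 51.3% (49.1 to 53.5) of tag-rich peaks with a counterpart and 28.0% (27.3 to 28.6) of ear-alone peaks of 4 to 14 tags. Among ear-alone peaks the share was 15.8% at 4 tags, 40.9% at 5, 36.5% at 6 to 9, 47.5% (45.3 to 49.7) at 10 to 14 and 48.8% (45.2 to 52.5) at 15 to 19. The share was thus lowest at 4 tags, and at 10 to 14 tags the interval overlaps that of the regions. Of these 785 nearest neighbours, 461 (58.7%) were ear-alone peaks of 4 to 14 tags, which make up 77.9% of the ear list. A further 122 (15.5%) were other regions of the set, which make up 6.37% of the list. Another 112 (14.3%) were tag-rich peaks on a tassel peak, which make up 7.80%. Tag-rich peaks on a tassel peak had 987 such neighbours, of which 188 (19.05%) were of that same class and 117 (11.9%) were regions. A raised share of neighbours of the same class was thus not particular to the regions. A total of 157 regions (9.99%, 8.61 to 11.6) lay within 5 kb of a tag-rich ear peak that was also found in a tassel, against 3.89% (3.63 to 4.18) of the weaker ear-alone peaks.

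Joined at gaps of up to 50 kb, 396 of the regions (25.2%) fell into 179 groups of 2 or more, and 26 groups held 3 or more. Such grouping is not given here for tag-rich peaks with a counterpart, so these counts are not read as particular to the regions. The largest group, on chromosome 1 (266158419 to 266165112), packed 6 regions and 152 tags into 6.69 kb. Its richest peak (266160012 to 266160661) held 47 tags with a 106-fold enrichment at an FDR of 25.9%, and the other 5 held 18 to 22 tags at 100%. The 6 regions are at least 278 bp apart and are the only ear peaks in the interval. A peak of tassel replicate 2 with 8 tags and the smallest width of 500 bp lies between them, 102 bp from the nearest region, and a further peak of that list with 19 tags lies 184 bp from the last region. Tassel replicate 1 has no peak within 287 kb. The group is thus in the ear alone by the rule, with tassel peaks in and next to its gaps. Groups of 5 regions lay on chromosome 3 (6662892 to 6688804), where 2 tag-rich peaks with a counterpart lie among them, and on chromosome 8 (171606655 to 171649847), where 1 does. Among fixed windows of 1 Mb, the interval from 162 to 163 Mb on chromosome 7 had most regions, 10 of its 34 ear peaks, and only 1 tag-rich peak with a counterpart. The window from 281 to 282 Mb on chromosome 1 held 7 of each. Both windows and both groups of 5 were named after their values were seen.

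The regions leaned towards the chromosome ends as the tag-rich peaks with a counterpart did, which the rule did not use. The outermost 20% at each end, together 40% of the length, held 60.4% of the regions (58.0 to 62.8), 62.8% (60.7 to 65.0) of tag-rich peaks with a counterpart and 47.9% (47.2 to 48.6) of ear-alone peaks of 4 to 14 tags. The share of the regions was above that of the weaker peaks on 10 of 10 chromosomes, and above that of the tag-rich peaks with a counterpart on 3 of 10. The outermost 5% at each end held 19.9% of the regions and the middle 20% held 9.10% (7.78 to 10.6), against 13.97% and 16.1% (15.6 to 16.7) of the weaker peaks. Among ear-alone peaks the outer share was 41.9% at 4 tags, 48.7% at 5, 54.1% at 6 to 9, 60.8% at 10 to 14, 58.8% at 15 to 19, 60.3% at 20 to 29 and 66.5% (60.4 to 72.1) at 30 to 49. At 50 or more tags it was 52.6% with a wide interval (37.3 to 67.5). At 10 to 14 tags the share was already at the level of the regions. In tag-rich peaks with a counterpart the outer share was 64.9% at 15 to 19 tags and 63.5% at 20 to 29. It was 60.3% at 30 to 49 tags and 62.3% at 50 or more. The regions were thus lower in each band but 30 to 49 tags, where they were higher, with overlapping intervals throughout. Length was taken as the highest peak end on each chromosome, and unmappable sequence was not allowed for.

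**Figure D4:**
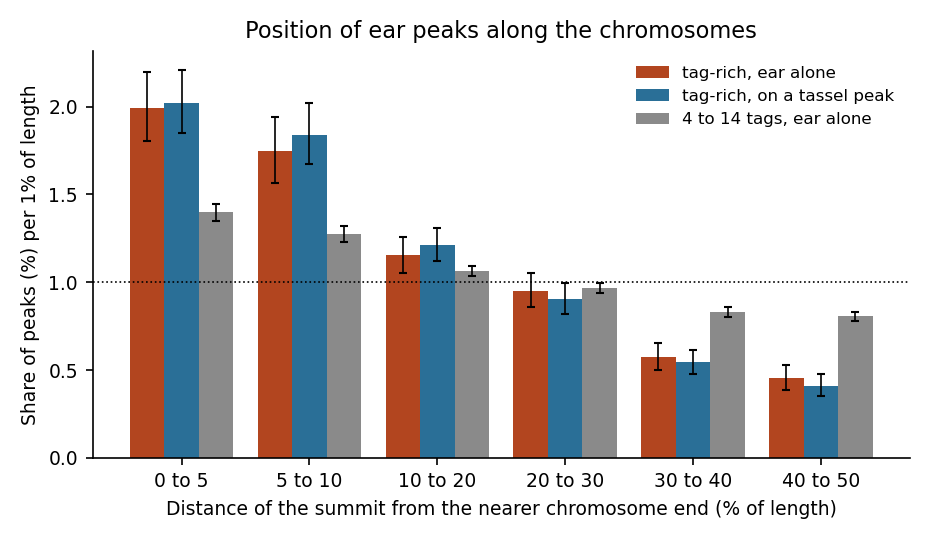
Share of peaks (%) per 1% of chromosome length, by distance of the summit from the nearer chromosome end (% of length), for tag-rich ear peaks in the ear alone, tag-rich ear peaks on a tassel peak and ear-alone peaks of 4 to 14 tags; error bars are 95% Wilson intervals and the dotted line marks an even spread. In the outermost bin the values are 1.99, 2.02 and 1.40, and in the innermost bin 0.455, 0.411 and 0.806.

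All 10 numbered chromosomes carried regions, at uneven density. Chromosome 1 had most, 284 or 0.943 per Mb, and chromosome 6 had the lowest density, 92 or 0.544 per Mb, followed by chromosome 4 with 138 or 0.572 per Mb. Tag-rich peaks with a counterpart were also least dense on these chromosomes, with 0.733 per Mb on chromosome 4 and 0.857 per Mb on chromosome 6. The regions' share of the tag-rich ear peaks was lowest on chromosome 6, at 38.8% (32.8 to 45.2), and highest on chromosome 1, at 48.5% (44.4 to 52.5). These intervals overlap slightly, and the difference between chromosomes was not tested. The share was under 50% on 10 of 10 chromosomes. The place of the regions also varied between chromosomes, with 52.2% of the 92 regions of chromosome 6 in the outer 40% against 68.3% of its 145 tag-rich peaks with a counterpart. On chromosome 4 the outer share was 48.6% in the regions and 41.2% with a counterpart.

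**Figure D5:**
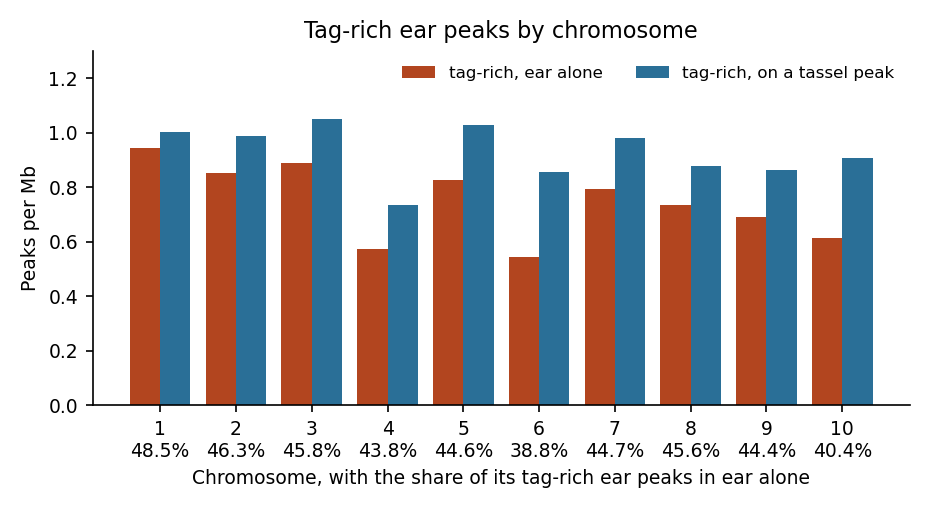
Tag-rich ear peaks per Mb on each numbered chromosome, in the ear alone (left bar) and on a tassel peak (right bar), with the ear-alone share of each chromosome's tag-rich ear peaks under its number. The ear-alone bar is the lower on each chromosome, from 0.544 per Mb on chromosome 6 to 0.943 on chromosome 1.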

How the data were processed

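Anti-KN1 ChIP peak lists were analysed for 1 ear and 2 tassel samples. Per the labels, input DNA was the control; per the submitters' processing notes, Bowtie and CASAVA (listed with version 1.4) were used. Peak names are those of MACS; no source used here gives its version, the alignment settings or the build. The deposited tag count is a whole number of ChIP tags, the deposited score is -10 × log10 of MACS's p-value, the deposited fold is a ratio to local background, and the deposited FDR is a percent. Without a header, the columns were taken in the order MACS writes them.

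Distances are differences between nearest peak ends, and 0 where peaks share 1 bp. Shares have 95% Wilson intervals and medians have 95% order-statistic intervals, which hold only counting error over peaks, and peaks close together are not independent; tags carry no molecular identifiers. Python 3.11.15, numpy 2.4.6, pandas 2.3.3, scipy 1.17.1 and matplotlib 3.10.9 were used, with overlap counts checked against bedtools 2.31.1 and the code tested on simulated data. Single regions were named by fixed rules: the 10 with most tags, the 5 each with best score, highest fold, farthest and nearest tassel peak, those at an FDR of 20% or less, and the largest group. Members, rules and lists were chosen with earlier results of these data known. Alternatives changed the tag limit, overlap, lists, score and FDR.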

Additional observations from a re-analysis of the deposited data

Results flagged for a closer look

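On sequence outside the numbered chromosomes, which the rule leaves out, 4 tag-rich ear peaks without a tassel counterpart lay on the plastid genome. The count was flagged because a count of 0 would allow up to 3, which is not an expected level for plastid DNA. No level was predicted for this sequence, the count uses the same tags and overlap as the rule, and no test was made. They held 18 to 31 tags at an FDR of 100% and at most 22.6-fold enrichment, and were 4 of the 10 ear peaks there. Each tassel list had 1 peak on that sequence. The mitochondrial genome held 1 such peak, with 30 tags, and the sequence named UNKNOWN held 3, with 15 to 23 tags. That 1 peak was the only ear peak on the mitochondrial genome, where tassel replicate 1 had 6 peaks and tassel replicate 2 had 11. On UNKNOWN there were 59 ear peaks, against 14 in tassel replicate 1 and 13 in tassel replicate 2. The inputs, which would show the background of plastid DNA, were not analysed here.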

How the results depend on the processing

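Of 131 alternative values, 70 stayed within the 95% interval of the reported value (counts within 1.5 times) and 61 moved; the cause was not tested beyond what each setting changes by construction. No paired analysis was possible because no test between groups was made and there is 1 ear list. With limits of 10, 20 and 30 tags the number of regions was 3566, 850 and 283, their share of ear peaks at that limit 57.0%, 37.6% and 26.2%, the median width 592, 758.5 and 859 bp, the median fold 28.45, 42.0 and 54.2, the median score 121, 232 and 359, and the share at an FDR of 100% 92.9%, 71.5% and 28.98%. At 30 tags the outer share was 64.7% and the share with an ear peak within 5 kb 52.7%. The share of tag-rich ear peaks that were regions (44.9%) and the share with a tassel peak within 5 kb (39.7%) became 49.4% and 45.1% when 50% of the shorter peak had to be shared, 51.4% and 47.2% with summit windows of 200 bp each side (median width 712 bp), 41.1% and 34.1% when a tassel peak within 500 bp counted as shared, 33.8% and 19.8% at 2 kb (ear peak within 5 kb 44.1%, band comparisons apart 2 of 20), and 51.3% and 34.9% with tassel scores of 100 or more (band comparisons apart 0). Tassel peaks at an FDR of 20% or less gave 1617 regions, 46.3% of tag-rich ear peaks, and 35.7% within 5 kb. Most tassel counterparts thus remained at that FDR, which 0.568% of all ear peaks reached. Ear scores of 100 or more gave a median fold of 38.5 and score of 187. Ear peaks at an FDR of 20% or less left 9 regions, 6.43% of such peaks, with medians of 879 bp, 100.6-fold and a score of 779, 0% at an FDR of 100%, 22.2% in the outer part, 22.2% with a tassel peak and 66.7% with an ear peak within 5 kb. Leaving out a tassel list (replicate 1 and replicate 2) gave 1678 and 3157 regions, shares of 48.0% and 90.3%, medians of 697 and 719 bp, 36.3 and 38.5-fold and scores of 181 and 200.5, 83.4% and 74.6% at an FDR of 100%, 60.4% and 62.1% in the outer part, 32.6% and 12.8% with a tassel peak and 49.4% and 51.2% with an ear peak within 5 kb, and 1 and 2 band comparisons apart. The outer 10% at each end held 37.4% of the regions. A tassel peak lay within 1 kb of 14.9% and within 20 kb of 63.0%, and an ear peak within 1 kb of 22.3% and within 20 kb of 71.0%. Unknown library depths and 1 ear list limit all values.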
